A study of Mus musculus with 12 samples.

Results

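Binding of the transcription factor BATF was examined at 10 effector cytokine genes other than Il9 and Il17 in mouse T-helper cells. The genes were Il2, Il21, Il10, Il22, Ifng, Il3, Csf2, Il24, Lif and Il6, of 21774 protein-coding genes in the annotation. A BATF peak was given to a gene when its summit, the position of highest signal that the peak caller recorded, lay in the gene body or within 100 kb of it on mm10 (GRCm38). By this rule 13 regions, of 5873 in the genome, belonged to the 10 genes.

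The study compared where BATF sits on DNA in Th9 and Th17 cells by chromatin immunoprecipitation and sequencing (ChIP-seq). Naive CD4+ T cells of C57BL6/J mice were cultured into Th9 cells with IL-4, IL-2, TGF-β1 and antibody to IFNγ. Th17 cells were grown with IL-6, TGF-β1, IL-23 and IL-1β plus antibodies to IFNγ, IL-4 and IL-2. There were 2 BATF libraries of Th9 cells, numbered 1 and 2, and 2 of Th17 cells, numbered 3 and 4, each with its own input and IgG controls. Nothing in the labels says whether the libraries of a cell type came from separate cultures, so their spread may be technical. The peak lists hold no expression values, and the cell type labels could not be checked against marker genes. Il9, Il17a and Il17f, the signature cytokine genes of the cell types, were counted among 50 other cytokine and effector genes described last.

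BATF is a basic leucine zipper protein that pairs with JUN proteins and binds AP-1 sites, spelled TGACTCA or TGAGTCA. In T cells it also binds with IRF4 at composite elements called AICE, where an AP-1 site lies next to an IRF site. It takes part in the differentiation of several T-helper subsets. Among the genes examined, IL-2 is the T cell growth factor and IL-21 supports Th17 cells and B cell help. IL-10 restrains inflammation, IL-22 acts on epithelial barriers, and IFNγ is the signature cytokine of Th1 cells. IL-3 and GM-CSF, the product of Csf2, act on myeloid cells, while IL-24, LIF and IL-6 belong to the IL-10 and IL-6 cytokine families.

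The sequences of the regions that carried an AP-1 site, lay in a cytokine gene's own promoter or body, or belonged to a gene with different sites in the 2 cell types are given next, to show the sites and places described further on. The choice rests on sequence and position and not on peak strength, and the regions left out include the Lif peak, which had the same rank as the printed Th17 peak at Il22. Each is the reference strand of GRCm38, 5′ to 3′, around the summits, and capitals mark the AP-1 site within 100 bp of a summit.
Il21 upstream, in both cell types, chr3:37292772-37292960: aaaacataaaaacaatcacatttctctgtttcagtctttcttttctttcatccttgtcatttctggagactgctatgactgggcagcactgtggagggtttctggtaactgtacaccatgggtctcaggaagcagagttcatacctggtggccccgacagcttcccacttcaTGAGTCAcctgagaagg
Il21 promoter, Th17, chr3:37233015-37233115: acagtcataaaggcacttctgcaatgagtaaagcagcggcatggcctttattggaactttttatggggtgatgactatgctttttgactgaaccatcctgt
Il21 far upstream, Th17, chr3:37313601-37313701: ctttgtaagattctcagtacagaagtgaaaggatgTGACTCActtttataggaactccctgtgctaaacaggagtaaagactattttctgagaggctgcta
Il22 upstream, Th9, chr10:118178800-118178900: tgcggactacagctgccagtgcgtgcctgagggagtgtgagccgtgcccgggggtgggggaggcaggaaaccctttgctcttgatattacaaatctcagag
Il22 upstream, Th17, chr10:118172576-118172676: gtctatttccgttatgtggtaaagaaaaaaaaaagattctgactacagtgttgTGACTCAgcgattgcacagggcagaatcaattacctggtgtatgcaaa
Il6 upstream, Th9, chr5:29947345-29947497: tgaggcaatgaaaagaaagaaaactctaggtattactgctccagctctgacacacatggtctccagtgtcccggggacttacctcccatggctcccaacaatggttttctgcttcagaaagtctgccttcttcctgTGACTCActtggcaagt
Il6 downstream, Th17, chr5:30040016-30040116: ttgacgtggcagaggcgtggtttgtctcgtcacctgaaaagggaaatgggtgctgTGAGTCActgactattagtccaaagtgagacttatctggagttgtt
Ifng downstream, Th17, chr10:118470756-118470892: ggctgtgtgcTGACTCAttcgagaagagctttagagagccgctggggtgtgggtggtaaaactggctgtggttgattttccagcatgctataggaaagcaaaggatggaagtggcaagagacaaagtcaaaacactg
Il10 upstream, Th17, chr1:130993836-130993936: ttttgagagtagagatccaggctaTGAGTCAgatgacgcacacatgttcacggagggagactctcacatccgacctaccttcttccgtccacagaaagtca
Il10 intron, Th17, chr1:131022718-131022818: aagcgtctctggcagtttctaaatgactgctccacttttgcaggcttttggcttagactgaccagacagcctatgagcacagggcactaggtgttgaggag

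BATF peaks lay near 7 of the 10 genes in at least 1 library, beside 43.3% of protein-coding genes, and Il3, Csf2 and Il24 had none. In Th9 cells 3 genes had a peak, Il21, Il22 and Il6. The same 3 genes and Il2, Il10, Ifng and Lif, 7 in all, had a peak in Th17 cells. Il21 was the gene with a peak in all 4 libraries, and Il10 had one in both Th17 libraries but at different places. The libraries differed widely in how many peaks were called, with 1709 and 241 for Th9 cells against 4111 and 199 for Th17 cells. A gene with no peak was below the threshold of that library and was not shown to be unbound. The study's methods give 1 approximate read number for every library, and the lists carry peaks without read counts, so differences in depth between libraries could not be measured here.

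**Figure D1:**
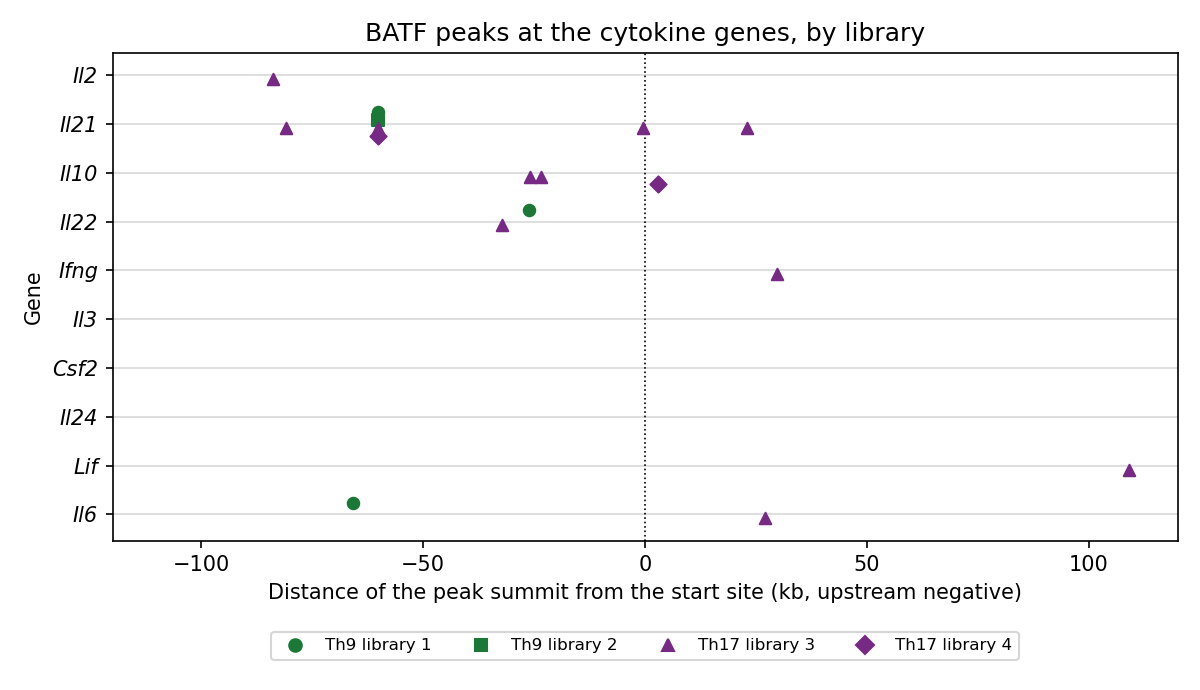
Distance of each BATF peak summit from the start site of the gene in kb (x axis, upstream negative) for the 10 genes (y axis), with 1 symbol per peak and library. The symbols of all 4 libraries coincide 60.2 to 60.3 kb upstream of Il21, and most others belong to Th17 library 3.

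The counts were set against the whole annotation, and in each cell type the longer list held more of the genes. In Th9 library 1, 3 of the 10 genes had a peak, beside 14.8% of protein-coding genes, and in Th9 library 2 it was 1 gene beside 2.77%. In Th17 library 3, 7 genes had a peak beside 34.0%, and in Th17 library 4 it was 2 genes beside 2.1%. With either library of a cell type, the 3 genes in Th9 stood beside 16.6% and the 7 genes in Th17 beside 34.5% of protein-coding genes. A peak in both cell types was found at 3 genes, where 7.92% of protein-coding genes had one, and in all 4 libraries at 1 gene, where 0.354% had one. These shares are a description of a chosen set of genes and were not tested. Without Th9 library 1 the count in Th9 was 1 gene, without Th17 library 3 that in Th17 was 2 genes, and in either case 1 gene had a peak in both cell types. The share of protein-coding genes with a peak in both cell types was not computed with a library left out. With the top 199 peaks of each library, the length of the smallest list, the counts were equal, at 2 genes in Th9, Il21 and Il6, and 2 in Th17, Il10 and Il21, beside 3.78% and 3.91% of protein-coding genes. Il21 was then the 1 gene with a peak in both, beside 1.05%. When a peak was given to the gene with the nearest start site instead, 2 genes had one in Th9, Il22 and Il6, beside 5.72%, and 4 in Th17, Il10, Il21, Ifng and Il6, beside 11.9%. Il6 was the 1 gene in both under that rule, beside 2.2%. Within 20 kb of the gene body the counts were 0 in Th9, beside 6.51% of protein-coding genes, and 2 in Th17, Il10 and Il21, beside 13.6%. The cytokine genes were shorter than most, with a median length of 5.3 kb against 17.2 kb over protein-coding genes, so their windows were slightly narrower.

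**Figure D2:**
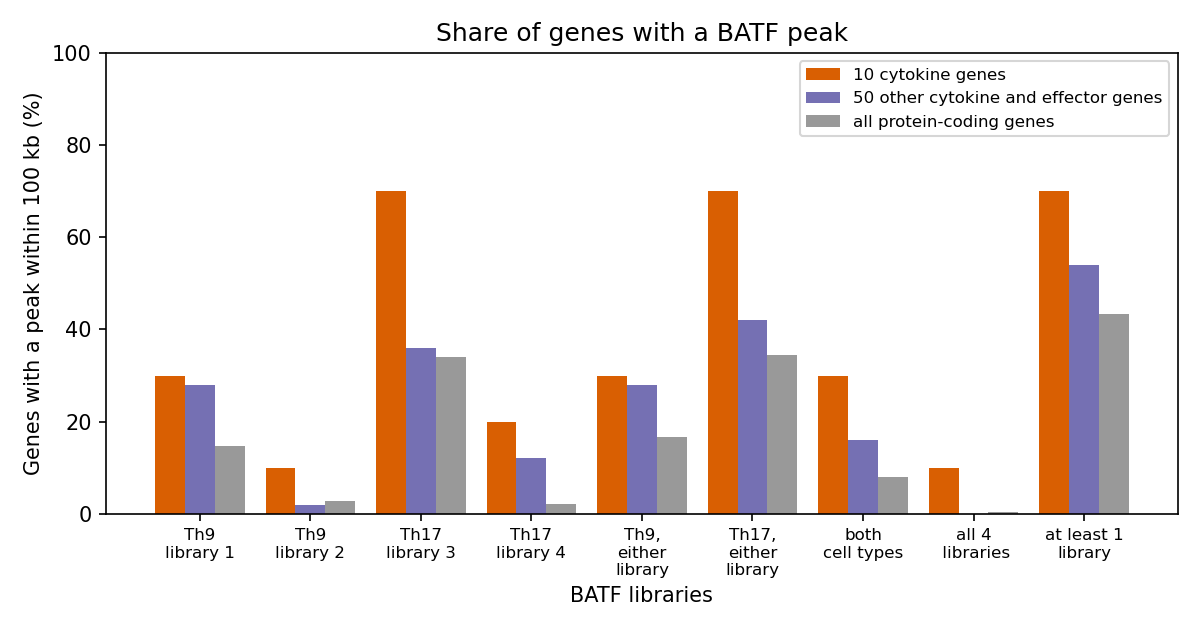
Percent of genes with a BATF peak in the body or within 100 kb (y axis) in each library and combination (x axis), for the 10 cytokine genes, 50 other cytokine and effector genes and all protein-coding genes. In Th17 library 3 the bars stand for 7 of 10 genes, 36.0% and 34.0%.

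The number of distinct peaks at the 10 genes was 3 and 1 for Th9 cells against 10 and 2 for Th17 cells. The means were 2.0 ± 1.41 in Th9 and 6.0 ± 5.66 in Th17 cells (SD, n = 2 each), and the groups overlapped. The difference of 4.0 peaks gave p = 0.667 in an exact two-sided permutation test, and the smallest p that 2 against 2 libraries allow is 0.33. As a share of each list, the peaks came to 0.176% and 0.415% in Th9 and 0.243% and 1.01% in Th17 libraries. The exact 95% binomial intervals, which cover counting error only, were 0.0362% to 0.512% and 0.0105% to 2.29% for Th9, and 0.117% to 0.447% and 0.122% to 3.58% for Th17. They overlapped, and the same exact permutation test on the shares gave p = 0.667. The windows together cover 0.0626% of the assembled chromosomes. Without Th17 library 3, or with the top 199 peaks of each library, the difference in peak number was 0.0, and without Th17 library 4 it was 8.0.

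The IL-21 gene held the region found in every library. It lay 60.2 kb upstream of the start site, at chr3:37292695-37293013, between genes. The start site nearest to it was that of Cetn4, 19.6 kb away, and no protein-coding gene lay between the region and Il21. The peak had a fold enrichment, the ratio of summit signal to its local expectation, of 9.56 in Th9 library 1 and 10.7 in Th9 library 2. It was 22.0 in Th17 library 3 and 11.9 in Th17 library 4. These values were not compared between libraries and were read only within each list, where the peak ranked 56 of 1709, 22 of 241, 5 of 4111 and 13 of 199 by −log10 q. It was therefore among the stronger peaks of each library, and the lists called against input alone or IgG alone held it in every library as well. Of all 5873 regions, 24 were called in all 4 libraries, 0.409%, and 210, 3.58%, in both cell types. Among the 24, the Il21 region ranked 4 by its lowest −log10 q over the libraries.

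The 4 summits of this region spanned 67 bp, and the 4 peaks had 166 bp in common, chr3:37292772-37292937. One AP-1 site, TGAGTCA at chr3:37292944-37292950, lay just beyond the upstream end of that stretch. Its centre was 58 bp from the summit in Th9 library 1 and 95 bp in Th17 library 3. In Th9 library 2 and Th17 library 4 it was 125 and 108 bp away, beyond the 100 bp searched. The peak of Th9 library 2 ended before the site, and those of the other libraries contained it. The summits thus lay to the gene side of the site in all 4 libraries.

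**Figure D3:**
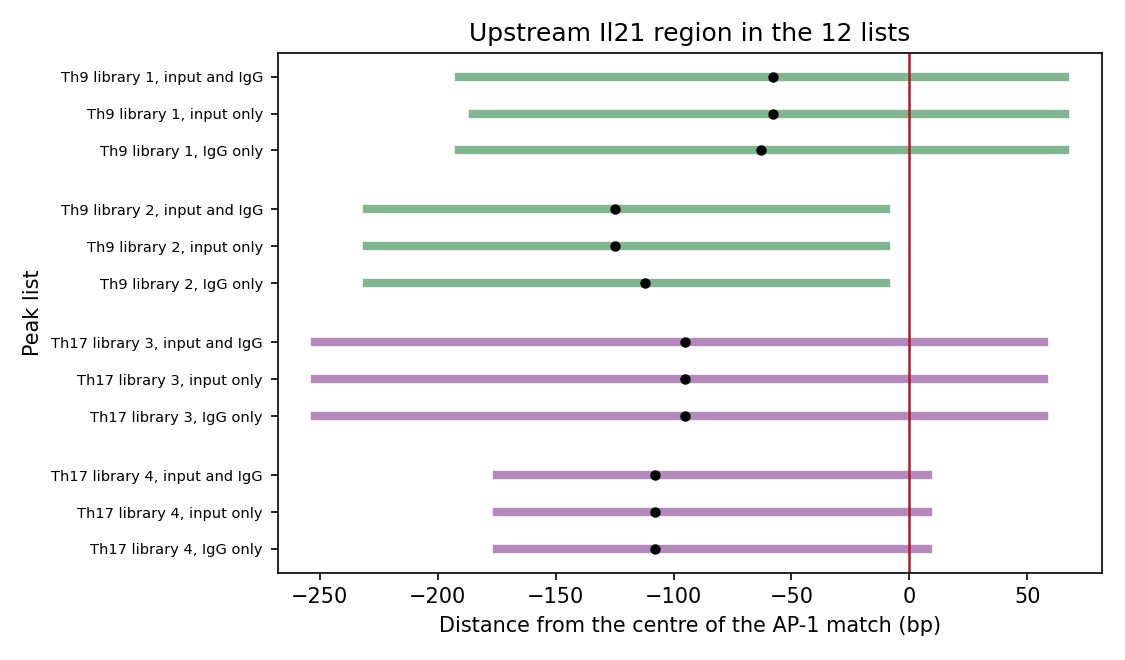
Peak intervals (bars) and summits (points) of the upstream Il21 region in the 12 lists (y axis), as distance in bp from the centre of the AP-1 match (x axis, Il21 lies to the left). The summits lie 58 to 125 bp from the match in the lists that used both controls.

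Th17 library 3 had 3 further regions at Il21. One was in the promoter, at chr3:37232988-37233212, with its summit 429 bp upstream of the start site. It had no AP-1 site and was absent from the list called against input alone. Another lay 81.0 kb upstream, at chr3:37313448-37313705, in an intron of Bbs12 and 1.1 kb from the start site of that gene, with TGACTCA centred 12 bp from the summit. The last, at chr3:37209554-37209775, lay 22.9 kb downstream of the Il21 start site and 83.8 kb upstream of that of Il2, whose body is 96.8 kb from that of Il21. It was the one region in the windows of 2 of the genes and was counted once. It was also the sole basis for counting Il2, and the start site nearest to it was that of Il21. All 3 peaks ranked 988 of 4111, at a −log10 q of 6.001 and 6.78-fold enrichment.

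Il22 and Il6 had peaks in both cell types, at different places. At Il22, Th9 library 1 had a peak 26.1 kb upstream, at chr10:118178772-118178965, with a fold enrichment of 6.54, rank 370 of 1709. Th17 library 3 had one 32.3 kb upstream, at chr10:118172552-118172765, with a fold enrichment of 8.47, rank 426 of 4111. The summits were 6.2 kb apart, both between genes, and the Th17 summit was slightly nearer to the start site of Mdm1, 30.8 kb away. TGACTCA was centred 6 bp from the Th17 summit, and no AP-1 site was near the Th9 summit. At Il6 the Th9 library 1 peak lay 65.7 kb upstream, at chr5:29947282-29947547, with a fold enrichment of 8.05, rank 135 of 1709. The Th17 library 3 peak lay 26952 bp downstream of the start site, past the gene Tyms, at chr5:30040038-30040215, with a fold enrichment of 7.34, rank 727 of 4111. Both Il6 peaks had an AP-1 site, centred 89 bp from the Th9 summit and 8 bp from the Th17 summit. Neither gene had a peak in Th9 library 2 or Th17 library 4. The difference in place thus rests on 1 library per cell type and was not tested. Over all 5873 regions, 3.58% were called in both cell types. The share of genes with peaks in both cell types but at different places was not computed.

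Il10 had 3 regions, in Th17 libraries alone. Library 4 had a peak in an intron, 2.9 kb downstream of the start site, at chr1:131022653-131022866, with a fold enrichment of 10.3, rank 27 of 199. No AP-1 site lay within 100 bp of its summit. Library 3 had peaks 26.0 and 23.4 kb upstream, at chr1:130993838-130994006 and chr1:130996410-130996612, with fold enrichments of 6.21 and 5.08. The first had TGAGTCA centred 23 bp from the summit. The second, with rank 2483 of 4111, had the lowest −log10 q of the 16 peaks at the 10 genes, 3.32. The 2 Th17 libraries thus had no Il10 region in common, where 95.3% of all 5873 regions were called in 1 library.

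Ifng and Lif had 1 region each, both in Th17 library 3. The Ifng peak lay 29.8 kb downstream of the start site between genes, at chr10:118470741-118470974, with a fold enrichment of 9.03, rank 337 of 4111, and TGACTCA was centred 73 bp from its summit. The Lif peak, at chr11:4366512-4366691, had a fold enrichment of 8.47, rank 426 of 4111, and no AP-1 site. It lay 109.0 kb from the start site and 94.1 kb past the gene end, close to the edge of the window, in an intron of Hormad2. Il3 and Csf2 lie 15.2 kb apart and had no peak in any of the 12 lists. The nearest peak of Th17 library 3 was 130.8 kb from Il3, in an intron of Meikin. Il24 was also without a peak, and the nearest, 106.5 kb away and just outside the window, was the upstream Il10 peak of Th17 library 3. Peaks of the same library lay just outside the windows of Il6, 107.0 kb away in an intron of Hadha, and of Il2, 107.1 kb away, which was the Il21 promoter peak.

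In each library the peaks at the 10 genes had a higher median −log10 q than the whole list. The medians were 8.49 against 3.82 in Th9 library 1 and 6.52 against 4.12 in Th17 library 3. The single peak of Th9 library 2 had 14.0 against 5.24, and the 2 of Th17 library 4 had a median of 14.7 against 6.81. The upstream Il21 region supplied that single peak. It was also 1 of those 2, at 16.6, the other being the Il10 intron peak at 12.7. The same region gave the highest value among the cytokine gene peaks of each longer list, 11.9 for Th9 and 44.7 for Th17. The comparisons therefore share a region and are not separate observations of the 10 genes. With so few peaks no test was made.

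**Figure D4:**
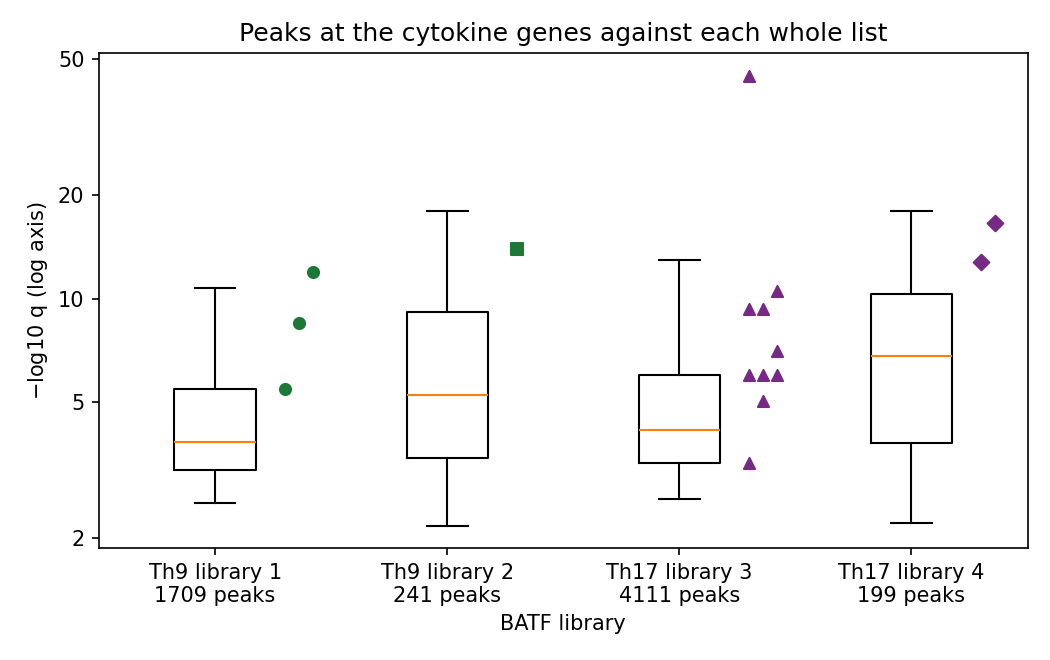
Minus log10 q (y axis, log scale) of the peaks at the 10 genes (symbols) beside the whole list of each library (box, median and quartiles; whiskers, 5th to 95th percentile). The highest symbol is the upstream Il21 peak of Th17 library 3, with a −log10 q of 44.7.

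Across the genes, 12 of the 13 regions were called in 1 library, as were 95.3% of all 5873 regions. By cell type, 2 regions were in Th9 alone, 10 in Th17 alone and 1 in both, where the shares of all regions were 28.4%, 68.0% and 3.58%. By site, 9 lay between genes, 3 in introns and 1 in a promoter, within 1000 bp of a start site. Over all regions 52.7% lay between genes, 41.4% in introns and 3.32% in promoters. For 9 of the 13, the nearest start site was that of one of the 10 genes.

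An AP-1 site lay within 100 bp of a summit in 7 of the 13 regions, 53.8% (exact 95% binomial interval 25.1% to 80.8%). The share was 17.2% over all 5873 regions and 3.42% over windows of equal length 2000 bp to either side. Of the 26 such windows beside the 13 regions, 3 held the site, 11.5%. Regions with a higher −log10 q held the site more often, in 31.4% at 5 or more and 8.66% below 5, and 12 of the 13 regions at the cytokine genes had 5 or more. Within 50 bp of a summit the count was 4 of 13, against 12.5% over all regions, 1.68% over the flanking windows and 2 of the 26 beside the 13 regions. Without Th17 library 3, 2 of 4 regions had a site within 100 bp, and the share over all regions was not computed for that setting. No region held an AICE, defined as GAAA directly before the AP-1 core or TTTC 4 bases before it on either strand, and 0 of 13 allows a share of up to 23.1% when the limit is set at 3 counts, or 24.7% by the exact 95% binomial interval. The share over all regions was 1.36%, and 0.0766% in the flanking windows. A STAT site, TTCNNNGAA, was near 1 region, the downstream Il6 peak, against 8.97% over all regions and 7.17% in the flanks, and 3 of the 26 windows beside the 13 regions held one. The core GGAA was near 12 of the 13, against 88.3% and 87.5%, and in 25 of the 26. A match describes the sequence alone, and these shares were not tested.

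Of 50 other cytokine and effector genes, 27 had a peak in at least 1 library, 54.0% beside 43.3% of protein-coding genes. Neighbouring genes shared peaks, as Il4, Il5 and Il13 did in Th9 library 1 and Il17a and Il17f did in Th17 library 4. The count of genes is therefore not a count of separate peaks. In Th9 libraries 1 and 2 the number of genes was 14 and 1 of the 50, beside 14.8% and 2.77%. In Th17 libraries 3 and 4 it was 18 and 6 of the 50, beside 34.0% and 2.1%, and these shares were not tested. Il9 had a peak in both Th9 libraries, and Il17a, Il17f and Il19 in both Th17 libraries. Il17a and Il17f also had a peak within 100 kb in Th9 library 1, and none in Th9 library 2. By this rule a peak near these genes was not limited to Th17 cells. The places of these Th9 calls were not examined. The paper describes BATF at the Il17 promoter and at distal sites as seen in Th17 and absent in Th9 cells. The Il19 window overlaps that of Il10. Its library 4 peak is the Il10 intron peak, and its 2 library 3 peaks are the upstream Il10 peaks, so Il19 adds no peak to those at Il10. Among the 50 genes, the highest fold enrichment in Th9 library 1 and Th17 library 3, 12.5 and 10.7, belonged to a peak in the windows of Il4, Il5 and Il13. In Th9 library 2 it was Il9, at 7.47, and in Th17 library 4 it was a value of 10.3 at Il17a and Il17f and at Il19. None of the 50 genes, 0 of 50, had the pattern of Il21, with a peak in all 4 libraries.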

How the data were processed

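BATF ChIP-seq peak lists of 4 libraries were analysed, 12 lists in all, 3 per library, called against input, IgG or both. The control of a list is known from its name alone, and the peak names inside say Input in every list, also in those named for IgG. Per the submitters' processing notes, the tools were Trim Galore 0.4.3, Bowtie2 and MACS2 2.1.0, with mm10. The authors deposited for each peak a fold enrichment, a ratio over local background. The authors also deposited −log10 p-values and −log10 q-values, called per library. Lists made with both controls were the main ones. Genes came from RefSeq annotation release 108.20200622, and start sites from curated transcripts. Regions merged peaks overlapping by 1 bp. Motifs were searched on both strands. Python 3.11.15, pandas 2.3.3, scipy 1.17.1 and pysam 0.24.0 were used, and windows, motifs and merging were tested on simulated data. All 10 genes were named. Of 50 others, those named had a peak in both libraries of a cell type or the highest fold enrichment among the 50 in a library. The choice of printed sequences, regions just outside the window, neighbouring genes and the split of AP-1 shares at a −log10 q of 5 were added after the values were seen. The members and lists were chosen with earlier results of these data known. The methods give a nominal depth alike for every library, the reads each library held could not be counted from the lists, and the number of peaks limits the precision.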

Additional observations from a re-analysis of the deposited data

How the results depend on the processing

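The upstream Il21 region was shared by the cell types with either single control and at 50% reciprocal overlap. It was also shared at a −log10 q of 5 or more, with equal numbers of top peaks and without any 1 library. These last outcomes were fixed beforehand. The region was called in all 4 libraries, with a lowest −log10 q of 11.9 and a rank of 56 or better in each list. It was lost, at 0, with a 20 kb window or with nearest start sites, by construction, since it lies 60.2 kb away and nearer to Cetn4. With 20 kb, genes with a peak numbered 0 in Th9, 2 in Th17 and 0 in both, regions 0 in Th9 and 3 in Th17. With nearest start sites, 2 genes had a peak in Th9, 4 in Th17 and 1 in both, with 2 Th9 and 7 Th17 regions. With as many top peaks in each library as the smallest list held, 2 genes had a peak in Th9, 2 in Th17 and 1 in both, with 2 regions in each cell type, and the difference in peaks per library was 0.0. Leaving out 1 library gave 1 to 3 genes in Th9, 2 to 7 in Th17 and 1 to 3 in both. Regions ranged from 1 to 3 in Th9 and from 2 to 11 in Th17, and the difference in peaks from 0.0 to 8.0. The low values came without Th9 library 1 or Th17 library 3, the longer list of each cell type. AP-1 regions ranged from 2 to 7, the lowest without Th17 library 3, and numbered 4 within 50 bp of the summit. They were 8 with TGANTCA, and 7 at the summit with the highest −log10 q, an alternative chosen after seeing the data. AICE regions were 0 under every alternative run, of which only TGANTCA and the lists with a single control could have added any. No paired analysis was possible because no BATF library number occurs in both cell types, with 1 and 2 in Th9 and 3 and 4 in Th17, and a shared number ties a BATF library only to its own input and IgG.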

Other observations

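The peaks at the 10 genes were nearly the same under each control. Of the 16 peaks, 15 were in all 3 lists of their library, the exception being the Il21 promoter peak, and summits moved by at most 19 bp between lists. AP-1 sites were also present where no peak was called. Of the 8 genes with a promoter sequence in the RefSeq table, Il6 and Lif had an AP-1 site there, beside 5.2% of all promoters, and neither promoter had a peak.

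A region called in all 4 libraries lay beyond the Lif window, at chr11:4438258-4438552 in an intron of Hormad2, 165.9 kb from the end of Lif. It was chosen for mention after its values were seen.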
